A study of Mus musculus with 8 samples.

Results

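The aryl hydrocarbon receptor, its partner, its repressor and 4 of its known target genes were followed in mouse Th17 cells that express either form of ROR-γt. The 7 genes are Ahr, Ahrr, Arnt, Cyp1a1, Cyp1b1, Tiparp and Nqo1. They were taken by gene symbol, not by their values, from the 22829 genes of the table of normalized counts. All 7 were found, each once, and 0 had a mean under 10. Splenic CD4+ T cells of ROR-γt-/- mice were infected with a lentivirus carrying WT-ROR-γt (WT, n = 4 samples) or K187R-ROR-γt (K187R, n = 4), a form in which the lysine that accepts SUMO is replaced by arginine, and then cultured under Th17 polarizing conditions. All 8 samples therefore share the deletion, and each carries a lentiviral vector. The age of the animals, the time of harvest and any agent that binds AHR are not given in the sources used here. The samples are numbered 1 to 4 in each group, and although the design speaks of 4 mice a group, nothing ties a sample to an animal or culture, so the p-values measure the spread between these samples, which may be technical.

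AHR is a transcription factor that rests in the cytosol with chaperones until a small molecule binds it. It then enters the nucleus, pairs with ARNT and binds short DNA elements, the xenobiotic response elements, next to genes of foreign compound metabolism. The same genes provide its feedback, since CYP1 enzymes break down its ligands, AHRR competes for ARNT, and TIPARP modifies AHR and lowers its activity. Th17 cells are known for a high level of Ahr among T helper cells, and AHR supports their production of IL-22.

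Xenobiotic response elements have the core GCGTG. The core was looked for on both strands in the 300 bases around the RefSeq start of each gene, 250 before and 50 after it, in GRCm38.p6. RefSeq and GENCODE starts can differ. The Cyp1a1 window, 57697363 to 57697662, lies inside the GENCODE extent of the gene given below. Of the 7 genes, 6 had an entry (Ahr did not), and 5 of these held the core, against 32.4% of all 32851 promoters in the table. The Ahrr window held 3 cores, and 3.91% of all promoters held 3 or more. The stretches around the cores are shown so that the letters which AHR and ARNT can recognise are seen beside the levels of their genes. Capitals mark the core, and each stretch is written on the strand on which the core reads GCGTG.
Ahrr, chr13:74292332-74292451, minus strand, the 120 bases before the start: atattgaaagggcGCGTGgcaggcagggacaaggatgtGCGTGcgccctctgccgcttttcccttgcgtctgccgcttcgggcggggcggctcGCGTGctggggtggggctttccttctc
Cyp1a1, chr9:57697549-57697573, plus strand: agataaggagGCGTGgccaacagac
Cyp1b1, chr17:79715123-79715147, plus strand: agggggtgggGCGTGaggggcggga
Tiparp, chr3:65528267-65528291, minus strand: cctcccgtgcGCGTGctccggacgg
Arnt, chr3:95434351-95434375, plus strand: atagtttgggGCGTGtcttctgccc

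The Nqo1 window held no core. A longer form of the element, TNGCGTG, was present only in the Ahrr window among the 6, against 5.07% of all promoters. A match of 5 letters describes the window and does not show that AHR binds there, and elements farther from the start were not searched.

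RNA seq was used to count transcripts, with 52456804 to 74676721 reads counted on genes per sample. Each value is a read number divided by its sample's size factor, here a normalized count. The T cell markers Cd3e (20844 to 27404) and Cd4 (15147 to 20882) were high everywhere, and so were Il17a (2087 to 6075) and Il17f (10238 to 24917), the cytokines of Th17 cells. Markers of other cells were present too. The 7 myeloid markers searched, Lyz2 the most abundant, summed to between 21416 and 63126 in WT and between 36360 and 66293 in K187R. The 4 B cell markers summed to between 262 and 1253, the 4 dendritic cell markers to between 159 and 685, the 2 CD8 T cell markers to between 387 and 1141, and the NK and erythroid markers to at most 61.3. In such bulk samples fewer cells of a type and less RNA per cell cannot be told apart. Clustering over 16905 genes without the genes listed here divided the samples into 3 sets. WT replicates 1 and 3 fell in set 1 with K187R replicate 1. WT replicate 2 fell in set 2 with K187R replicates 2 and 3, and both samples numbered 4 made up set 3. Each set has samples of both groups, so differences are also given within sets.

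All 7 genes were expressed in both groups, the targets Tiparp and Cyp1a1 at a higher mean level per length than the receptor. Because longer transcripts collect more reads, levels were compared between genes as normalized counts per kb of merged exons. Tiparp stood highest in WT with 1970 ± 156 per kb (SD, n = 4), next to Cyp1a1 with 1859 ± 69.3 per kb (SD, n = 4), and their ranges overlapped. The level of Tiparp was above that of 89.5% of genes, and that of Cyp1a1 above 89.2%. Ahr itself had 1110 ± 240 per kb in WT (SD, n = 4) and Arnt 783 ± 25.9 (SD, n = 4), and these neighbours overlapped in WT but not in K187R. Cyp1b1 had 391 ± 65.9 per kb in WT (SD, n = 4) and Nqo1 228 ± 114 (SD, n = 4), again overlapping. Ahrr was the lowest at 89.5 ± 7.80 per kb in WT (SD, n = 4), below every sample of the other 6 genes. In K187R the order began with Cyp1a1 at 1670 ± 277 per kb and Tiparp at 1635 ± 254 (SD, n = 4 each), followed by Ahr at 1219 ± 210 and Arnt at 730 ± 11.9 (SD, n = 4 each). The ranges of these first 3 genes overlapped in K187R, where Ahr reached 1395 per kb and Cyp1a1 went down to 1379. Cyp1b1 with 325 ± 80.3 and Nqo1 with 320 ± 109 per kb (SD, n = 4 each) could not be ranked there, and Ahrr was again the lowest with 77.8 ± 11.9 per kb (SD, n = 4).

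**Figure D1:**
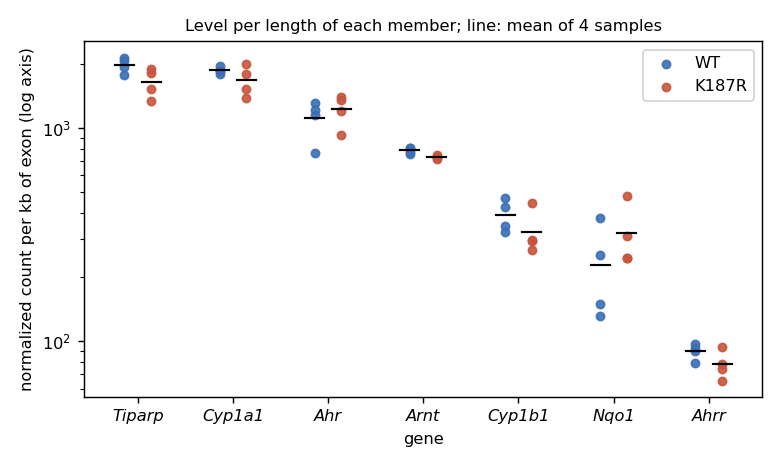
Normalized counts per kb of merged exon (log axis) of the 7 genes, ordered by their WT mean. Points are samples, 4 WT in blue and 4 K187R in red, and lines are means. The means of Tiparp and Cyp1a1 lie above that of Ahr in both groups, and every Ahrr point lies below those of the other 6 genes.

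The comparison of K187R with WT asks whether loss of the SUMO site changes the transcripts of this pathway. Ahr and Nqo1 had the higher mean in K187R, and Ahrr, Arnt, Cyp1a1, Cyp1b1 and Tiparp the lower. The differences of all genes but Nqo1 were small, with changes from -17.6% (Cyp1b1 and Tiparp) to 10.7% (Ahr). None of the 7 passed an adjusted p-value under 0.05 in limma, the model fitted over all 16982 genes with a mean of at least 10, and 0% of all genes passed. Their adjusted p-values were 0.921 in limma for 6 genes and 0.928 for Ahr. At an unadjusted limma p-value under 0.05 there was 1 gene of the 7, Tiparp, where 4.39% of all genes were below it. The same holds for edgeR and DESeq2 on the recovered reads, which called 0 of the 7 and had Tiparp alone at an unadjusted p-value under 0.05. The median log2 fold change was -0.17 over the 7 genes and -0.0062 over all genes tested. Log2 fold changes are differences of the group means of log2(normalized count + 1), positive where K187R is higher.

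**Figure D2:**
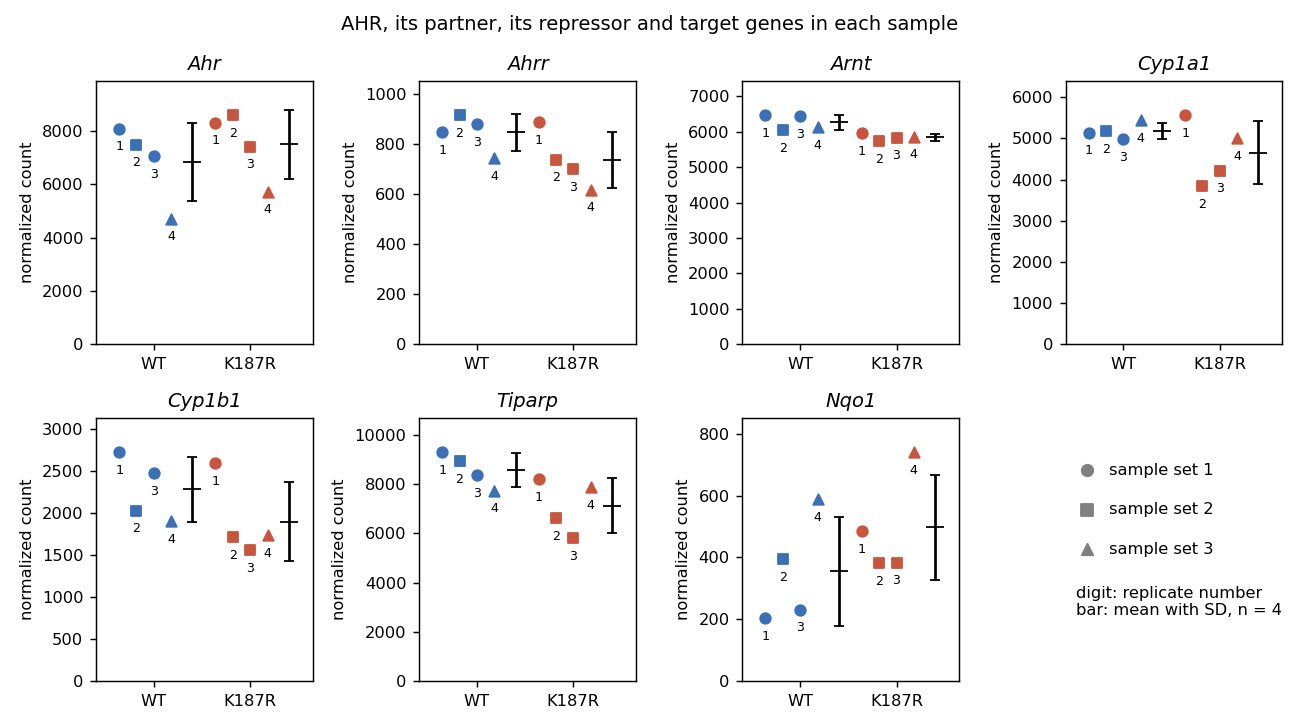
Normalized counts of each gene in each sample, WT in blue and K187R in red, on axes that start at 0. Digits are replicate numbers, marker shapes the 3 sample sets, and bars the mean with SD (n = 4). The groups overlap for every gene but Arnt, whose axis shows how small its difference is.

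Ahr (ENSMUSG00000019256, chromosome 12 of GRCm38, 35497974 to 35535038, minus strand) encodes the receptor. Its normalized counts in WT replicates 1 to 4 were 8092, 7494, 7068 and 4712. In K187R replicates 1 to 4 they were 8316, 8594, 7415 and 5729. Both samples numbered 4 were the lowest of their group, and the other 6 samples lay between 7068 and 8594 with the groups mixed. The mean was 6841 ± 1481 in WT and 7513 ± 1292 in K187R (SD, n = 4 each). The log2 fold change was 0.15 (standard error 0.183, 95% interval -0.26 to 0.56, exact two-sided permutation p = 0.514). It was smaller than the log2 SD of either group, 0.35 in WT and 0.27 in K187R. Within sets 1, 2 and 3 the log2 fold change was 0.14, 0.091 and 0.28. Without WT replicate 4 it was -0.0225. Gm48236, on the opposite strand, shares 2.06% of its exonic bases, and whether the counting used strand is not stated.

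The targets differed in whether they were low, like Ahr, in the samples numbered 4. These samples had 4712 and 5729 normalized counts of Ahr, a mean of 5220 against 7830 in the other 6. Their Cyp1a1 counts, 5439 and 5003, had a mean of 5221 against 4817 in the other 6 and lay within the range of the others. Ahrr was the lowest of its group in both, with a mean of 680 against 827. Cyp1b1 had a mean of 1821 against 2183, Tiparp 7804 against 7872 and Nqo1 664 against 346. Il22, which encodes the cytokine that AHR supports in Th17 cells, was at or under the floor of 3 reads there, with 2.61 and 1.78 normalized counts against 39.2 to 59.7 in the other 6 samples. The myeloid sum, mostly Lyz2, was the highest in these samples, 63126 and 66293, although Csf1r, Cd14 and Adgre1 were higher in set 2 samples of K187R. The B cell sum was the lowest, 262 and 310. The part of these cells in the level of Ahr was not tested.

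Arnt (ENSMUSG00000015522, chromosome 3, 95434388 to 95497240) encodes the partner that AHR shares with the hypoxia factors. It was the steadiest of the 7 genes, and its highest sample was 1.13 times its lowest. Its normalized counts in WT replicates 1 to 4 were 6464, 6054, 6435 and 6136, and in K187R replicates 1 to 4 they were 5964, 5731, 5836 and 5859. Every K187R sample was below every WT sample, which was so for 0.989% of all genes tested. The opposite separation, every K187R sample above every WT sample, was found for 1.47%. The mean was 6272 ± 208 in WT and 5847 ± 95.4 in K187R (SD, n = 4 each), a change of -6.75%. The log2 fold change was -0.10 (standard error 0.0580, 95% interval -0.23 to 0.030). An exact permutation test, two-sided, gave p = 0.0286, the smallest that 4 samples against 4 allow. It is not adjusted for the 7 genes so tested. The separation was kept in CPM, where each sample's reads are scaled to the same total, with 98.9 to 104 in WT and 94.2 to 97.3 in K187R. It was lost when each sample was centred on its median gene, where the lowest WT sample had a log2 value of 12.56 and the highest K187R sample 12.57. Within the sample sets the difference was -0.11, -0.066 and -0.067.

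Ahrr (ENSMUSG00000021575, chromosome 13, 74211118 to 74292331, minus strand) encodes the repressor of the receptor and is itself a target. WT replicates 1 to 4 had 847, 913, 878 and 742 normalized counts. K187R replicates 1 to 4 had 886, 736, 699 and 617. In K187R 3 of 4 samples were below every WT sample, and K187R replicate 1 was above 3 of the WT samples. The mean was 845 ± 73.6 in WT and 735 ± 112 in K187R (SD, n = 4 each). The difference was -0.21 on the log2 scale (standard error 0.126, 95% interval -0.49 to 0.074, exact two-sided permutation p = 0.171). Within the sets it was 0.038, -0.35 and -0.27, so set 1 did not share the direction.

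Tiparp (ENSMUSG00000034640, chromosome 3, 65528410 to 65555518) encodes an enzyme that attaches ADP-ribose to AHR. Its promoter window carries 1 core, shown above. WT replicates 1 to 4 had 9305, 8926, 8367 and 7741 normalized counts, and K187R replicates 1 to 4 had 8199, 6623, 5811 and 7867. K187R replicates 2 and 3 were below all WT samples, while K187R replicates 1 and 4 were above WT replicate 4. The mean was 8585 ± 682 in WT and 7125 ± 1108 in K187R (SD, n = 4 each). Its log2 fold change of -0.28 (standard error 0.116, unadjusted p = 0.0381 and adjusted p = 0.921 in limma) had a 95% interval of -0.54 to -0.019, which is not adjusted for the number of genes. By exact permutation, two-sided, p was 0.0857. Within the sets the difference was -0.11, -0.52 and 0.023, and set 3 did not share the direction. The opposite-strand gene 4931440P22Rik shares 5.12% of its exonic bases.

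Cyp1a1 (ENSMUSG00000032315, chromosome 9, 57687928 to 57703824) encodes the enzyme whose induction is the usual readout of AHR activity. WT replicates 1 to 4 had 5139, 5171, 4973 and 5439 normalized counts, a narrow range. K187R replicates 1 to 4 had 5559, 3844, 4217 and 5003, the highest and the lowest samples of the series among them. The mean was 5181 ± 193 in WT and 4656 ± 772 in K187R (SD, n = 4 each). The log2 fold change was -0.17 (standard error 0.112, 95% interval -0.42 to 0.084, exact two-sided permutation p = 0.286). Its size was above the log2 SD of WT, 0.053, and below that of K187R, 0.24. Within the sets the log2 fold change was 0.14, -0.36 and -0.12. The low K187R samples were the replicates 2 and 3 of set 2, but WT replicate 2 of the same set, with 5171, was not low.

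Cyp1b1 (ENSMUSG00000024087, chromosome 17, 79701537 to 79715061, minus strand) encodes a related enzyme that acts on steroids and many AHR ligands. WT replicates 1 to 4 had 2729, 2029, 2477 and 1905 normalized counts. K187R replicates 1 to 4 had 2594, 1715, 1557 and 1737. The 3 samples of set 1, with 2477 to 2729, were above all others whichever form of ROR-γt they expressed. The mean was 2285 ± 385 in WT and 1901 ± 469 in K187R (SD, n = 4 each). The difference was -0.28 on the log2 scale (standard error 0.174, 95% interval -0.67 to 0.11, exact two-sided permutation p = 0.2). Within set 1 the difference was -0.0036, in set 2 -0.31 and in set 3 -0.13. WT has 2 samples in set 1 and K187R has 1. By distance between centred log2 values over the 8 samples, the genes with the most similar profile were Bend4, Gm7666 and Phc3. Their distances were 0.196, 0.222 and 0.224, where Cyp1b1 lies 0.808 from a flat profile.

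**Figure D3:**
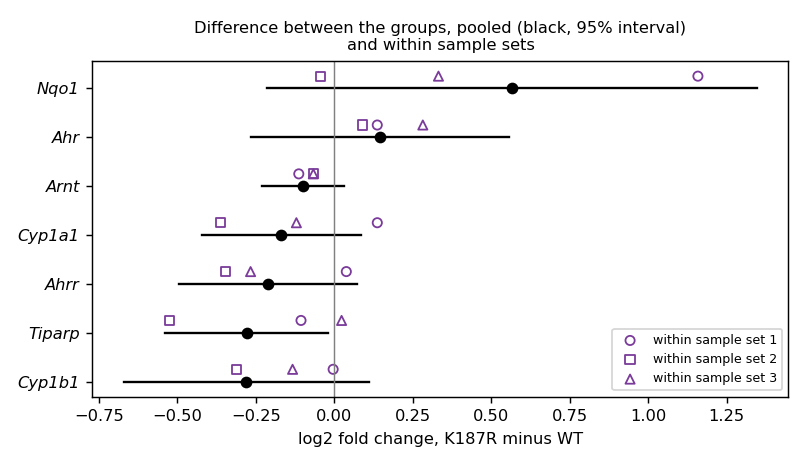
Log2 fold change of each gene, K187R minus WT. Black points with lines are the pooled limma estimates with 95% intervals, and open symbols the differences within sample sets 1 (circle), 2 (square) and 3 (triangle). Only Ahr (0.091 to 0.28), Arnt (-0.11 to -0.066) and Cyp1b1 (-0.31 to -0.0036) have the same sign in all 3 sets.

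Nqo1 (ENSMUSG00000003849, chromosome 8, 107388225 to 107403206, minus strand) encodes a quinone reductase that both AHR and the oxidative stress factor NRF2 are known to induce. It varied more than any other of the 7 genes, 3.64-fold between the lowest and the highest sample. WT replicates 1 to 4 had 203, 394, 231 and 588 normalized counts, and K187R replicates 1 to 4 had 485, 382, 382 and 741. WT replicates 1 and 3 were below all K187R samples, and WT replicate 4 was above 3 of the K187R samples. The mean was 354 ± 177 in WT and 497 ± 169 in K187R (SD, n = 4 each). The log2 fold change was 0.57 (standard error 0.347, 95% interval -0.22 to 1.35, exact two-sided permutation p = 0.257). It was below the log2 SD of WT, 0.71, and above that of K187R, 0.45. Within the sets the log2 fold change was 1.16, -0.045 and 0.33. The lowest count rested on 171 reads, which gives a counting error of 7.65%.

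Nqo1 and the summed myeloid markers were lowest in the same 2 samples and highest in the same 2. The summed markers in WT replicates 1 to 4 were 21416, 51059, 21927 and 63126, and in K187R replicates 1 to 4 they were 36360, 44988, 49034 and 66293. In both measures WT replicates 1 and 3 were the lowest and the samples numbered 4 the highest, but K187R replicate 1 had the third lowest sum and the third highest Nqo1. Lyz2 made up most of the sum, and the single markers did not all follow it. Csf1r was 2598 and 2423 in the samples numbered 4 and 4220 to 5074 in set 2, and Cd14 was 448 and 407 in the samples numbered 4 and 869 to 1058 in set 2. All 7 myeloid markers searched were detected in all samples. Lyz2, which encodes lysozyme of macrophages and granulocytes, ranged from 17025 to 57778, and Adgre1, the macrophage marker F4/80, from 107 to 863. The 3 genes whose profile lay closest to that of Nqo1 were Itgb5 (distance 0.462), AA914427 (0.519) and Lpar1 (0.533), where Nqo1 lies 1.66 from a flat profile. Itgb5, an integrin chain, ranged from 265 to 968. Cyp1b1 had its highest values in the 3 samples with the fewest myeloid markers. The part of myeloid cells in these levels was not tested.

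**Figure D4:**
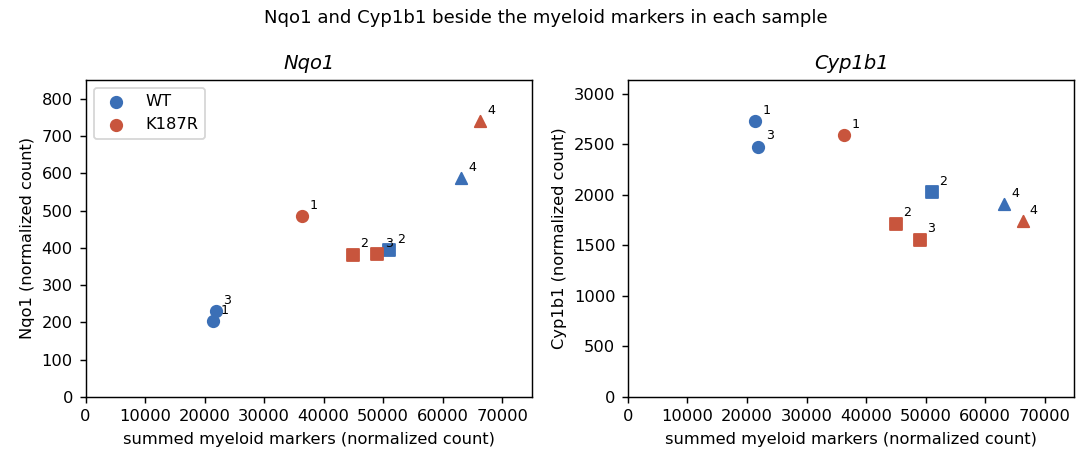
Normalized counts of Nqo1 (left) and Cyp1b1 (right) against the sum of 7 myeloid markers in the same sample, WT in blue and K187R in red, digits being replicate numbers and shapes the sample sets 1 (circle), 2 (square) and 3 (triangle). Nqo1 is lowest, 203 and 231, in the 2 samples with the fewest markers and highest, 588 and 741, in those with the most.

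Other genes of the pathway were taken from 6 lists with 55 genes, of which 52 were found by symbol and 48 had a mean of at least 10. In limma 0 of these 48 passed an adjusted p-value of 0.05, and 5 had an unadjusted p-value below 0.05, all higher in K187R. Over all 16982 genes 746 (4.39%) were below it, 467 of them higher in K187R. The median log2 fold change of the 48 was 0.13. Of the proteins that hold AHR in the cytosol, all 5 genes tested had a lower mean in K187R, where 8758 of all 16982 genes did. Their median log2 fold change was -0.048. Hsp90ab1, the chaperone with the highest level per kb, had 181148 ± 24506 normalized counts in WT and 163280 ± 4696 in K187R (SD, n = 4 each). Its log2 fold change was -0.14 with a standard error of 0.106 (limma, adjusted p = 0.921). Of 7 relatives of AHR and ARNT tested, 3 were higher and 4 lower. Arntl, a clock factor, had means of 2629 ± 270 and 3189 ± 262 (SD, n = 4 each) and differed by 0.28 on the log2 scale (standard error 0.0950, unadjusted p = 0.0154 and adjusted p = 0.921 in limma). Epas1, a hypoxia factor that pairs with ARNT, was low, with 170 to 202 in WT and 203 to 249 in K187R. It was the only relative whose K187R samples were all above the WT samples, as 1.47% of all genes were. Hif1a, the other hypoxia factor and the highest of these genes, had 39862 ± 10792 and 34551 ± 5690 (SD, n = 4 each). Arntl2, with the smallest p-value among the relatives with a lower mean, had 55.3 ± 22.5 and 38.3 ± 18.6 (SD, n = 4 each).

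Of 9 other genes of the AHR battery that were listed, 5 could be tested and 4 were low. Cyp1a2, Aldh3a1, Ugt1a6b and Gsta2 had means under 10. Cyp1a2, the neighbour of Cyp1a1 in the genome, had at most 4.75 normalized counts in any sample, where Cyp1a1 had at least 3844. Cyp2s1, a further cytochrome P450, had 460 ± 149 in WT and 605 ± 82.1 in K187R (SD, n = 4 each). The difference was 0.44 on the log2 scale with a standard error of 0.207 (limma, adjusted p = 0.921). Xdh, xanthine dehydrogenase, had 734 ± 95.1 and 710 ± 31.6 (SD, n = 4 each), and Nfe2l2, which encodes NRF2, 5694 ± 647 and 6319 ± 625 (SD, n = 4 each). The median of the 5 genes tested was 0.15.

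Nqo1 belongs to the genes of NRF2 as well, and 11 of 12 other NRF2 genes had the higher mean in K187R, with a median log2 fold change of 0.20. Of all 16982 genes tested, 8224 had the higher mean log2 value in K187R, and 4.39% had an unadjusted limma p-value below 0.05. None of the 12 NRF2 genes was called, and 1 had an unadjusted p-value below 0.05. That gene, Txnrd1, a thioredoxin reductase, had 9057 ± 985 in WT and 10378 ± 514 in K187R (SD, n = 4 each) and differed by 0.20 on the log2 scale (standard error 0.0859, unadjusted p = 0.0428 and adjusted p = 0.921 in limma). Its lowest samples were WT replicates 1 and 3, both of set 1, with 8334 and 8292. Within set 2 Txnrd1 was also higher in K187R replicates 2 and 3, with 10632 and 10858 against 10390 in WT replicate 2. Gclm, another gene of the list, was lower there, with 5948 and 5002 against 6217. The count of 11 pools the sets, and set 1 holds 2 WT samples and 1 K187R sample. Srxn1, sulfiredoxin, was the gene with a lower mean, 2039 ± 704 and 2010 ± 611 (SD, n = 4 each), and Prdx1, a peroxiredoxin, the highest of the list, had 19964 ± 2649 and 20973 ± 957 (SD, n = 4 each). The myeloid sums stated above were also higher on average in K187R, 49169 against 39382. The part of myeloid cells in the levels of the NRF2 genes was not tested.

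Of 12 genes tied to AHR in T cells, 11 had the higher mean in K187R, where 8224 of all 16982 genes did. Their median log2 fold change was 0.13. The 3 with an unadjusted p-value below 0.05, against 4.39% of all genes, encode receptors, Il1r1, Ccr6 and Il23r. Il1r1, a receptor for IL-1, had 721 ± 139 in WT and 1311 ± 96.7 in K187R (SD, n = 4 each). Its lowest K187R sample, at 1227, exceeded its highest WT sample, at 872, a separation in this direction shared by 1.47% of all genes tested. Il1r1 missed the threshold in limma (difference 0.88 on the log2 scale, standard error 0.140, adjusted p = 0.344) and passed it in DESeq2 (adjusted p = 3.24e-05). Ccr6, a chemokine receptor of Th17 cells, had 1191 ± 393 and 2399 ± 681 (SD, n = 4 each). It was not called in limma (difference 1.02 on the log2 scale, standard error 0.270, adjusted p = 0.921), but was with the sample set in the limma model (0.90, adjusted p = 0.0157). Il23r had 86.8 ± 42.2 and 207 ± 71.5 (SD, n = 4 each). Its difference was 1.27 on the log2 scale (standard error 0.351, adjusted p = 0.921 in limma). The paper reports Il23r among the Th17-associated genes that were higher with K187R-ROR-γt. Gpr15, a homing receptor for the colon and a gene that AHR is known to induce, had 281 ± 94.0 and 259 ± 51.6 (SD, n = 4 each). Maf, the highest gene of the list, had 44593 ± 2519 and 46001 ± 4714 (SD, n = 4 each).

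Enzymes and transporters that make, break down or carry tryptophan products, some of them AHR ligands, were measured by 7 tested genes. None of the 7 genes tested was called. In K187R 5 of them had the higher and 2 the lower mean log2 value. The median log2 fold change was 0.76, against -0.0062 over all genes tested. Il4i1, an amino acid oxidase chosen here after its values were seen, had 1736, 2679 and 2969 normalized counts in the 3 samples of set 2 and 276 to 462 in the other 5. Kmo, also chosen after its values were seen, had 415 to 428 in set 2 and 79.6 to 157 in the others. Its log2 fold change of 0.76 is the median given above. Set 2 holds 2 K187R samples, with 428 and 415 of Kmo, and 1 WT sample, with 418. Dendritic cell markers were the highest in set 2 as well, 538 to 685 against 159 to 407, mostly from Flt3 and Zbtb46, since Xcr1 and Siglech had at most 5.77. Their part in these levels was not tested. Ido2 had 8.33 ± 4.74 in WT and 22.9 ± 15.9 in K187R (SD, n = 4 each). This is a difference of 1.12 on the log2 scale with a standard error of 0.624 (limma, adjusted p = 0.921). Slc7a5, the chain of the tryptophan and kynurenine transporter with the highest level, had 12213 ± 1704 and 12014 ± 1156 (SD, n = 4 each), and its partner Slc3a2 10060 ± 1110 and 9624 ± 808 (SD, n = 4 each). Cyp1a1 had its 2 lowest values in set 2, 3844 and 4217, both in K187R samples.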

How the data were processed

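RNA seq of 8 samples was analysed, 4 WT and 4 K187R, grouped by their titles. Per the labels and the methods, the authors trimmed reads with Cutadapt, aligned them with HISAT2 to GRCm38 and counted them with featureCounts on GENCODE M15, with DESeq2 for the comparison. The labels and the methods name different library kits, and no strand setting is given. What was deposited is a signal, for each gene its reads over the size factor of the sample (0.842 to 1.18). Whole reads were recovered, with 100% of values within 0.01 of a whole number. In this count 3 reads equal 2.54 to 3.56 normalized counts, a floor for counting error only. No sample column was unused. The level of 1 further gene is not reported here.

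limma (lmFit, eBayes with trend) was run on log2(normalized count + 1) over 16982 genes with a mean of at least 10, with Benjamini-Hochberg adjustment at 0.05. The 8 samples were also permuted exactly, two-sided, for single genes. edgeR's quasi-likelihood test and DESeq2 were run on the recovered reads as alternatives, where edgeR called 0 genes and DESeq2 27. Genes and lists were chosen with earlier results of these data known. Named were the 7 genes and, per list, the gene of lowest p-value among those higher and among those lower, and the one with the highest level per kb. Other genes, among them Il22, Il23r, Ccr6, Epas1, Cyp1a2, Il4i1 and Kmo, were named outside this rule. Similar genes were named for genes with a log2 SD of at least 0.3. Sample sets are Ward clusters of the log2 values. The exon lengths and coordinates are those of GENCODE M21, and the promoters those of RefSeq (GRCm38.p6). Fits used limma 3.58.1, edgeR 4.0.16 and DESeq2 1.42.0 in R 4.3.3. Tables and plots used pandas 2.3.3 and matplotlib 3.10.9 in Python 3.11.15, and permutation numpy 2.4.6. Other alternatives were other pseudocounts, filters, scalings and variance settings, sample weights, leaving out samples, and terms for replicate number or sample set.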

Additional observations from a re-analysis of the deposited data

How the results depend on the processing

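Under all 25 alternatives 0 of the 7 genes was called, and their direction was kept except for Ahr without WT replicate 4 (log2 fold change -0.0225). With 1 sample left out the log2 fold change ranged from -0.0225 to 0.27 for Ahr, -0.30 to -0.13 for Ahrr, -0.12 to -0.086 for Arnt, -0.26 to -0.081 for Cyp1a1, -0.44 to -0.19 for Cyp1b1, -0.35 to -0.19 for Tiparp and 0.34 to 0.85 for Nqo1. The smallest adjusted p-value of any of them was 0.188, for Tiparp in DESeq2 with the replicate block. Without both samples numbered 4, Tiparp was at -0.38 and Nqo1 at 0.64 (adjusted p-values 0.392 and 0.421 in limma).

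The count of all genes called was 0 in limma (746 unadjusted). It was 3 with sample weights, 4 without the samples numbered 4, 27 in DESeq2, 1 with the sample set in limma, and 0 to 4 with 1 sample left out, 4 only without WT replicate 4. With the sample set in edgeR and DESeq2, added after the data were seen, it was 1 and 140. Samples with the same number deviated together for numbers 1, 2 and 4 (r over genes 0.592, 0.663 and 0.63) but not for number 3 (-0.0922), and 6 of 8 samples matched best with their own number. Since not every number did so, and no label ties them, the numbers were not taken to pair the samples. With the replicate block limma called 0 genes (2046 unadjusted), edgeR 0 and DESeq2 175. With the replicate block in limma 4 of the 7 genes had an unadjusted p-value under 0.05, where 2046 of all 16982 genes did. Of the 7 genes, 3 differed in 1 direction in all numbers. The share of all genes with 1 direction in all numbers was not counted, so the 3 cannot be weighed. Ahr was one of the 3, higher by 0.039, 0.20, 0.069 and 0.28 for numbers 1 to 4 (limma with the replicate block, unadjusted p = 0.0439 and adjusted p = 0.411). Of the 48 other pathway genes, 1 was called in DESeq2, 4 in DESeq2 with the replicate block (Il1r1, Ccr6, Il23r and Arntl, the last with adjusted p = 0.0203), 1 with the sample set in limma, 1 in edgeR with the set (both Ccr6) and 3 in DESeq2 with the set (Il1r1, Ccr6 and Il23r). The core of the element was in 5 promoter windows and its longer form in 1. A wider window was not run. For all of these the cause was not tested.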
